A study of Mus musculus with 6 samples.

Results

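The Notch receptors, their ligands, the DNA-binding partner RBPJ and the HES and HEY target genes were followed in cultured mouse neural retinal progenitor cells (mNRPCs) with and without knockdown of Ifitm3. The 10 genes were taken by symbol from the 55401 genes of the deposited table. They are the receptors Notch1, Notch2 and Notch3, the ligands Dll1, Jag1 and Jag2, the transcription factor Rbpj and the targets Hes1, Hes5 and Hey1, and 7 of them passed a filter on low values.

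The mNRPCs were established by the authors from adult mouse retina and kept in a serum-free medium with bFGF and the GSK3 inhibitor CHIR99021. The 6 RNA-seq libraries fall into 2 groups of 3, a control group and a group transfected with an siRNA against Ifitm3, with the RNA taken 48 h after transfection. The labels call the first group control only, so whether its cells received the scramble siRNA that the study used elsewhere is not given for these libraries. Age and strain of the source animals are not given in the sources used here. Nothing says that the libraries of a group came from separate cultures. A p-value here therefore sets the group difference against the scatter of these libraries, and that scatter can be technical.

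Notch receptors are cleaved after a ligand on a neighbouring cell binds them, and the freed intracellular part joins RBPJ (also called CSL) in the nucleus and turns on genes such as Hes1, Hes5 and Hey1. The HES and HEY proteins repress proneural genes, and in the developing retina this pathway keeps progenitors from becoming neurons and favours Mueller glia. RBPJ without the receptor fragment recruits corepressors.

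The levels are FPKM, a count of fragments divided by transcript length and by the mapped fragments of the library, so that genes can be compared per length. Knockdown of the targeted gene came first as a check of the labels. Ifitm3, the gene of an interferon-induced membrane protein, was at 3121.34, 2120.21 and 2509.18 FPKM in control replicates 1 to 3 and at 349.70, 546.38 and 398.47 FPKM after the siRNA, without overlap between the groups. On the log2(FPKM + 0.1) scale this is a difference of -2.59 (SE 0.23), with an adjusted p of 0.1001 from limma with Benjamini-Hochberg adjustment over 13588 genes. Only 1 of the 13588 genes passed an adjusted p of 0.05 (0.00736%), the gene Gm50452, and the count was 0 without both replicate 2 libraries.

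Both libraries numbered 2 stood apart from the other 4 on the first principal component, which held 37.1% of the variance. Their scores were 32.0 in control and 47.6 after the siRNA. The other 4 were spread from -33.1 (control replicate 3) to 0.15 (siRNA replicate 3). Between 11966 and 12274 genes were at 1 FPKM or more in each library. Of the retinal progenitor markers, Pax6 (8.39 to 13.7 FPKM), Six3 (7.71 to 11.9 FPKM) and Sox2 (32.1 to 58.6 FPKM) were expressed, while Rax and Six6 were listed at 0 FPKM in every library. The endothelial, microglial and pigment epithelial lists had all of their markers under 0.5 FPKM in every library. Of the 7 Mueller glia markers, Rlbp1 and Slc1a3 were at most 0.14 FPKM and Gfap was at 0.25 to 0.70 FPKM, while Glul (15.1 to 17.7 FPKM), Apoe (2.04 to 5.24 FPKM) and Vim (402 to 718 FPKM) were expressed and Aqp4 was at 0.13 to 2.60 FPKM.

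Promoters of a target and of a ligand are shown because the pathway acts through them: Hes5 as a textbook target of RBPJ, and Dll1 because it was the member with the smallest p and because HES proteins are known to repress Delta-like genes in the nervous system. The RefSeq windows (GRCm38.p6) reach from 250 bases before to 50 after each start, and 8 of the 10 genes matched, in 10 windows. No window was found for Hes1 and Hey1. The sequences are the 250 bases before the start, 5′ to 3′ on the strand of the gene. The capitals mark the RBPJ core TGGGAA, or TTCCCA where it lies on the other strand, in Hes5 (chr4:154960673-154960922, plus strand), and the HES class C site CACGNG in Dll1 (chr17:15376933-15377182, minus strand).
Hes5: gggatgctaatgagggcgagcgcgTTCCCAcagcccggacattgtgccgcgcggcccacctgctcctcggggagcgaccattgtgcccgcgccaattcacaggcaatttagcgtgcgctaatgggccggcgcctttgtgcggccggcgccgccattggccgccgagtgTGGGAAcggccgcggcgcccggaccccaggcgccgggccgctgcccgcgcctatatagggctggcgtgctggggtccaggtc
Dll1: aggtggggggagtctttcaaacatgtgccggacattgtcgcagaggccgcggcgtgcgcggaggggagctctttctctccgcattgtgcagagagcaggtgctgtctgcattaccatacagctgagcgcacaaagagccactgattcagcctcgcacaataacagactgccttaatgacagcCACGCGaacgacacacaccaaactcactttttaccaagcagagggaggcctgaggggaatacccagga
In the Hes5 promoter the cores lie 226 to 221 and 82 to 77 bases before the start and point in opposite directions. Dll1 has 2 windows in RefSeq, and the one printed, the second, holds 1 class C site 68 to 63 bases before its start. The other window holds a class C site as well, 105 to 100 bases before its own start. Both strands of the 300-base windows were searched for the core, for the class C site and for the N box CACNAG, which can overlap with the class C site when it reads CACGAG, as it did once in Notch3. The RBPJ core was in 3 of the 10 windows, against 25.6% of all 32851 windows. These were the window of Hes5 and both windows of Rbpj, which overlap and share a core, so that 1 site counts in both. The class C site was in 6 of the 10 windows, both of Dll1 among them, against 27.5%, and the N box in 4, against 42.5%. These letters are common, and a match is a description of the sequence only.

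The level of the 10 genes ran from Notch2, at a mean of 22.4 FPKM over the 6 libraries, to Hes5 at 0.013 FPKM. The order between them was Rbpj (19.4 FPKM), Hes1 (14.9 FPKM), Jag1 (7.19 FPKM), Notch1 (6.50 FPKM), Dll1 (3.73 FPKM), Hey1 (2.23 FPKM), Notch3 (0.28 FPKM) and Jag2 (0.04 FPKM). The ranges over the libraries of each gene and of the next in this order overlapped or met, except for Hey1 and Notch3. The cells held RNA of 1 abundant receptor, a second one at a lower level, 2 ligands, the DNA-binding partner and 2 of the 3 target genes, as the plot of levels by library shows.

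**Figure D1:**
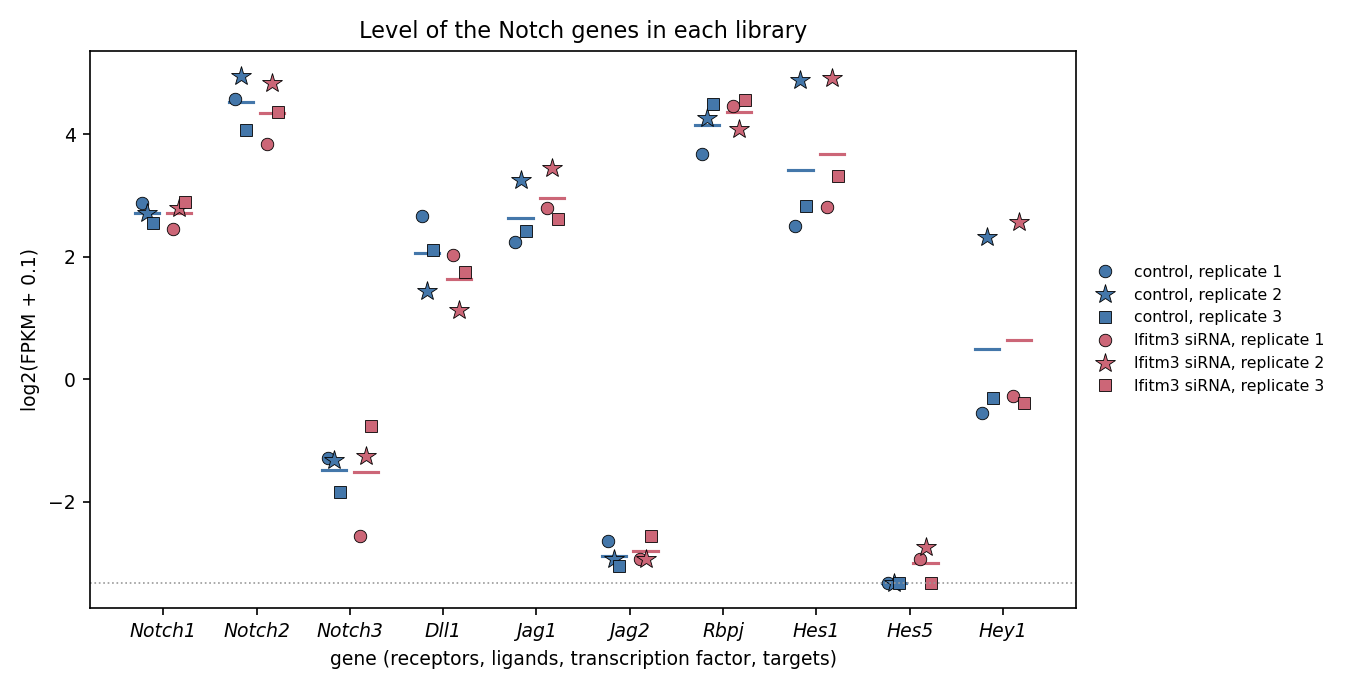
Level of each of the 10 genes on a log2(FPKM + 0.1) scale in each of the 6 libraries (blue, control; red, Ifitm3 siRNA; circles, stars and squares are replicates 1, 2 and 3), with group means on this scale as bars and a dotted line at 0 FPKM. The stars of Hes1, Hey1, Jag1 and Notch2 lie above and those of Dll1 below the other libraries in both groups, and Hes5 sits at or near 0.

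None of the 7 genes that passed the filter (0.5 FPKM or more on average) differed between Ifitm3 siRNA and control by more than the spread between replicates. The fit held condition only, without the replicate number. In limma, 0 of 7 passed an unadjusted p of 0.05, against 8.69% of all genes tested, and in 0 of 7 were the groups without overlap, against 15.6% of all genes tested. Of the 7 log2 fold changes, 4 were above 0 and 3 below, with a median of 0.14, beside a median of 0.04 over all genes tested. This balance turned with single libraries: 2 were above 0 and 5 below without control replicate 1 (median -0.13), control replicate 3 (median -0.085) or siRNA replicate 2 (median -0.18). In bulk RNA, fewer cells of a type and less RNA per cell cannot be told apart.

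Notch1 (ENSMUSG00000026923, chr2:26457903-26516663, minus strand, GRCm38) encodes a receptor used by progenitors of the nervous system. It was at 7.26, 6.45 and 5.76 FPKM in control replicates 1 to 3 and at 5.37, 6.83 and 7.30 FPKM after the siRNA. The groups overlapped almost completely. This gave a log2 fold change of 0.00 (SE 0.16, 95% interval -0.40 to 0.39, adjusted p = 0.996 from limma), the narrowest interval among the 7 genes.

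Notch2 (ENSMUSG00000027878, chr3:98013527-98150361, plus strand), a receptor also known from the developing ciliary body, had the highest level of the receptors. It was at 23.84, 30.86 and 16.68 FPKM in control replicates 1 to 3 and at 14.18, 28.43 and 20.50 FPKM after the siRNA. Both replicate 2 libraries were above the other 4, and the groups overlapped. With a log2 fold change of -0.19 (SE 0.31, 95% interval -0.94 to 0.56, adjusted p = 0.878 from limma), the difference was within the spread. Notch2 was above Notch1 in 6 of 6 libraries, by 2.64 to 4.78 times.

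Notch3 (ENSMUSG00000038146, chr17:32120820-32166852, minus strand), a receptor of mural cells and of some neural progenitors, did not reach the filter. It was at 0.31, 0.30 and 0.18 FPKM in control and at 0.07, 0.32 and 0.49 FPKM after the siRNA. The mural cell list, which holds Pdgfrb and Acta2, summed to 21.6 to 42.8 FPKM in control and to 12.6 to 26.4 FPKM after the siRNA, with 3 of its 5 markers under 0.5 FPKM in every library. The part of such cells in the values of Notch3 was not tested.

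Among the ligands, Dll1 (ENSMUSG00000014773, chr17:15367354-15376872, minus strand), a Delta-like ligand of newborn neurons and their precursors, had the largest difference and the smallest p of the 7 genes. It was at 6.27, 2.60 and 4.20 FPKM in control replicates 1 to 3 and at 3.99, 2.08 and 3.26 FPKM after the siRNA. The groups overlapped, and both replicate 2 libraries were the lowest of the 6. The log2 fold change was -0.43 (SE 0.36, 95% interval -1.31 to 0.44, unadjusted p = 0.274 and adjusted p = 0.747 from limma). Leaving out 1 library at a time moved it between -0.75 and -0.13.

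Jag1 (ENSMUSG00000027276, chr2:137081456-137116644, minus strand) encodes a Serrate-type ligand of the ciliary margin and of many progenitor and vascular tissues. It was at 4.63, 9.43 and 5.25 FPKM in control replicates 1 to 3 and at 6.88, 10.88 and 6.05 FPKM after the siRNA. The groups overlapped, and both replicate 2 libraries were higher than the other 4. Between the groups the log2 fold change was 0.32 (SE 0.33, 95% interval -0.46 to 1.10, adjusted p = 0.787 from limma). It was 0.074 without siRNA replicate 2 and 0.63 without control replicate 2.

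The balance of both ligands differed between libraries. The ratio of Jag1 to Dll1 was 0.738, 3.63 and 1.25 in control replicates 1 to 3 and 1.72, 5.23 and 1.86 after the siRNA. It was highest in replicate 2 of either group and above 1 in 5 of 6 libraries. Jag2 (ENSMUSG00000002799, chr12:112907819-112929776, minus strand), the other Serrate-type ligand, was at 0.02 to 0.06 FPKM in control and at 0.03 to 0.07 FPKM after the siRNA, too low for the test.

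Rbpj (ENSMUSG00000039191, chr5:53466152-53657362, plus strand), through which all Notch receptors act on DNA, was at 12.77, 19.07 and 22.53 FPKM in control replicates 1 to 3 and at 21.87, 16.81 and 23.49 FPKM after the siRNA. Control replicate 1 was the lowest library, and the remaining 5 lay between 16.81 and 23.49 FPKM. Between the groups the log2 fold change was 0.22 (SE 0.24, 95% interval -0.35 to 0.79, adjusted p = 0.808 from limma). Without control replicate 1 it was -0.015.

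The target gene Hes1 (ENSMUSG00000022528, chr16:30064384-30067796, plus strand) encodes the repressor that holds neural progenitors in an undifferentiated state. It was at 5.60, 29.59 and 7.02 FPKM in control replicates 1 to 3 and at 6.94, 30.12 and 9.85 FPKM after the siRNA. In both groups replicate 2 stood far above replicates 1 and 3, by 4.69 times in control and by 3.59 times after the siRNA, taken over their mean. Between the groups the log2 fold change was 0.27 (SE 0.76, adjusted p = 0.934 from limma), and its 95% interval reached from -1.55 to 2.09. A standard error this wide was uncommon in this fit without the replicate number, since 97.3% of all genes tested had a smaller one.

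Hey1 (ENSMUSG00000040289, chr3:8663359-8667256, minus strand), a target of the related hairy family with roles in vessels and neural precursors, had the same split at a lower level. It was at 0.58, 4.91 and 0.71 FPKM in control replicates 1 to 3 and at 0.73, 5.81 and 0.66 FPKM after the siRNA. Replicate 2 was higher than the mean of the other libraries of its group by 7.61 times in control and by 8.36 times after the siRNA. For the knockdown against control it was 0.14 on the log2 scale (SE 1.04, 95% interval -2.35 to 2.64, adjusted p = 0.975 from limma).

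Hes5 (ENSMUSG00000048001, chr4:154960923-154962371, plus strand), the target whose promoter is printed above and a marker of neural stem cells and Mueller glia, was listed at 0 FPKM in the 3 control libraries. After the siRNA it was at 0.03, 0.05 and 0 FPKM. With the filter on low values removed, the log2 fold changes of Hes5, Notch3 and Jag2 were 0.32 (SE 0.17), -0.04 (SE 0.51) and 0.07 (SE 0.19), with adjusted p of 0.781, 0.989 and 0.915 from limma. At levels this close to the 2 decimals of the table, these values depend on the pseudocount of 0.1.

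**Figure D2:**
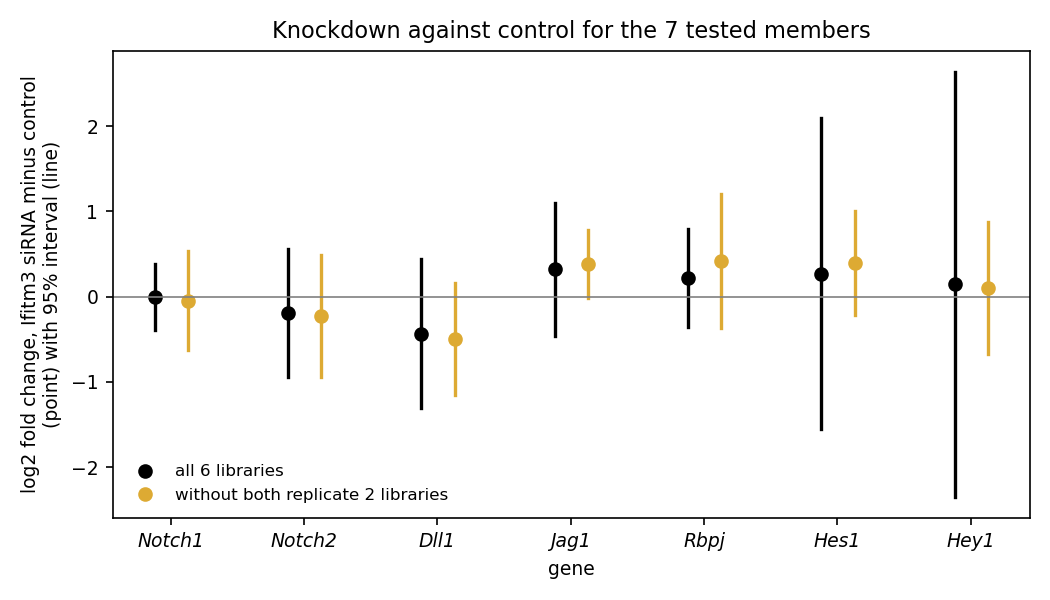
Log2 fold change (Ifitm3 siRNA minus control, points) with its 95% interval (lines) for the 7 genes that passed the filter, with all 6 libraries (black) and without both replicate 2 libraries (yellow). Every interval includes 0, and those of Hes1 and Hey1, which reach from -1.55 to 2.09 and from -2.35 to 2.64 with all libraries, narrow to -0.22 to 1.01 and to -0.68 to 0.87 without replicate 2.

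Because both replicate 2 libraries widened the intervals of Hes1 and Hey1 most, the comparison was also made without them, on 2 libraries against 2. The standard error rose for Notch1 (0.16 to 0.22) and Rbpj (0.24 to 0.29) and fell for the other genes. Hes1 then had a log2 fold change of 0.39 (95% interval -0.22 to 1.01) and Hey1 of 0.10 (95% interval -0.68 to 0.87). Jag1 was at 0.38 (95% interval -0.02 to 0.78) and Dll1 at -0.50 (95% interval -1.16 to 0.16). The other values were 0.42 for Rbpj, -0.22 for Notch2 and -0.05 for Notch1. The adjusted p of the 7 genes from limma lay between 0.496 and 0.950.

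The difference between the libraries numbered 2 and the rest was larger for the target genes than the difference between the groups. On the log2(FPKM + 0.1) scale, Hey1 was higher in replicate 2 than the mean of replicates 1 and 3 by 2.76 in control and by 2.90 after the siRNA, and Hes1 by 2.22 and 1.85. Among all 13588 genes, ordered by the smaller of both differences where they share a sign, Hey1 was 14th and Hes1 59th from the top. The median size of this difference over all genes was 0.26 in control and 0.29 after the siRNA.

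Jag1 was higher in replicate 2 by 0.92 and 0.74 on this scale and Notch2 by 0.63 and 0.73, while Dll1 was lower by 0.95 and 0.77. Both replicate 2 libraries were above the other 4 in 4 of the 7 genes, against 13.2% of all genes tested, and below them in 1 of 7, against 17.7%. Notch1 and Rbpj did not follow. Each of these 4 genes was high in the same libraries in which Dll1 was low, as the plot of replicate 2 differences shows. The numbers are labels only, and with 2 libraries of this number no test was made.

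**Figure D3:**
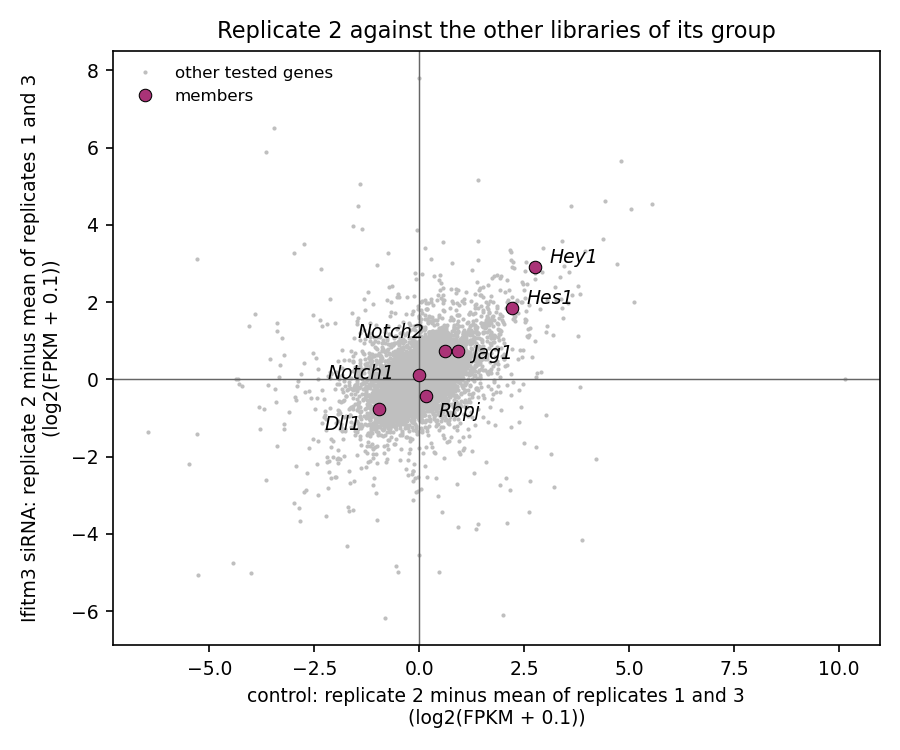
Replicate 2 minus the mean of replicates 1 and 3 on the log2(FPKM + 0.1) scale, in control (horizontal axis) and after Ifitm3 siRNA (vertical axis), for all 13588 genes tested (grey) and the 7 Notch genes (purple). Hey1 (2.76 and 2.90) and Hes1 (2.22 and 1.85) lie at the upper right edge of the cloud, Dll1 (-0.95 and -0.77) lies at the lower left, and Notch1 lies near the centre.

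Some markers of cell types moved with the same libraries. Of the 9 retinal progenitor markers, Sox2 and Sox9 were higher in both replicate 2 libraries than in the other 4, and the summed level of the list was 78.5 to 113 FPKM in control and 94.7 to 118 FPKM after the siRNA. Sox9, a factor of progenitors and glia, was at 7.01, 29.97 and 11.77 FPKM in control replicates 1 to 3 and at 18.31, 22.96 and 20.04 FPKM after the siRNA. Of the 7 Mueller glia markers, Aqp4 alone had both replicate 2 libraries above the other 4. It was at 0.86 FPKM against 0.13 and 0.17 FPKM in control and at 2.60 FPKM against 0.21 and 0.48 FPKM after the siRNA. In replicate 2, Apoe (4.21 and 5.24 FPKM) and Rlbp1 (0.04 and 0.11 FPKM) were highest only within their own groups, while Vim was lowest after the siRNA (402 FPKM). The sum of that list, mostly Vim, was 607 to 738 FPKM in control and 428 to 666 FPKM after the siRNA. The 3 proliferation markers went different ways. Mki67 was lower in both replicate 2 libraries (36.02 and 35.95 FPKM) than in the other 4 (36.63 to 53.50 FPKM). Top2a was the highest of its group in both (77.10 FPKM in control and 72.29 FPKM after the siRNA), and Ccnd1 was highest in control replicate 2 (446.38 FPKM) but not after the siRNA. Of the 5 fibroblast and mesenchyme markers, Pdgfra was above the other 4 libraries in both (1.68 and 2.32 FPKM against 0.75 to 1.20 FPKM). So were Csf1r and Cx3cr1 of the 5 microglial markers, at no more than 0.15 FPKM. The part of a different mix of cells in the values of Hes1 and Hey1 was not tested.

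The rest of the pathway was read from a list of 76 genes sorted by role, of which 54 passed the filter, the 7 members included. At an unadjusted p of 0.05, 3 of the 54 were higher and 2 lower, or 9.26% beside 8.69% of all genes tested, and 0 passed an adjusted p of 0.05. The median log2 fold change was 0.11, with 32 genes above 0 and 22 below, while 56.8% of all genes tested were above 0. The groups did not overlap in 13 of the 54 genes (24.1%), 8 of them higher and 5 lower, beside 15.6% of all genes tested.

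RBPJ and its cofactors were 17 of the 54 tested genes. Of these 17, 4 passed the unadjusted threshold, beside 8.69% of all genes tested, and 9 were without overlap, beside 15.6%. They made up 4 of the 5 and 9 of the 13 such genes of the pathway list. No test of this role as a set was made. The count of 3 higher pathway genes rested on single libraries, since leaving out control replicate 3 gave 0, and leaving out control replicate 1 or siRNA replicate 2 gave 1. Maml3, a coactivator of the Mastermind family that bridges RBPJ and the receptor fragment, was at 1.48, 1.67 and 1.43 FPKM in control replicates 1 to 3 and at 1.99, 2.64 and 2.12 FPKM after the siRNA. Its values did not overlap between the groups (log2 fold change 0.52, SE 0.18, unadjusted p = 0.0226 and adjusted p = 0.520 from limma). The corepressors Spen (2.44 ± 0.124 against 3.31 ± 0.447 FPKM, SD, n = 3) and L3mbtl3 (1.96 ± 0.0473 against 2.65 ± 0.180 FPKM, SD, n = 3) passed the unadjusted threshold too, higher by 0.42 and 0.41 on the log2 scale.

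Kat2b, an acetyltransferase that works as a coactivator, was lower. Of these 5 genes it alone passed the unadjusted threshold under each of the 12 alternative settings, which refit the same libraries or a part of them. It was at 11.88, 10.83 and 9.62 FPKM in control and at 7.35, 8.14 and 8.02 FPKM after the siRNA (log2 fold change -0.45, SE 0.13, unadjusted p = 0.0102 and adjusted p = 0.475 from limma). Of the 17 tested genes of this role, 13 were above 0 and 4 below, with a median of 0.20. With quantile normalization, 11 were above 0 and 6 below (median 0.15), and the median fell to 0.10 without control replicate 3 or without siRNA replicate 2.

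Of the 5 tested genes that glycosylate the receptors, Eogt, which adds GlcNAc to their EGF repeats, was lower at 2.96 ± 0.447 FPKM against 3.99 ± 0.0902 FPKM in control (SD, n = 3). Its log2 fold change was -0.43 (SE 0.15, unadjusted p = 0.0277 and adjusted p = 0.537 from limma). The fringe gene Lfng was at 3.11 ± 0.515 FPKM against 3.72 ± 0.572 FPKM (SD, n = 3), within the spread of replicates.

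All 10 genes of the cleavage group, the ADAM proteases, furin and the subunits of gamma-secretase, were expressed and 0 passed the unadjusted threshold. In 7 of them the log2 fold change was below 0. The smallest p were those of Furin (0.34, SE 0.14, unadjusted p = 0.0508 from limma), whose product cleaves the receptors on their way to the surface, and of the gamma-secretase subunit Aph1b (-0.35, SE 0.17, unadjusted p = 0.0762 from limma). Among the 12 tested genes of endocytosis and ubiquitination, Mib1, a ligase that activates the ligands, did not overlap between the groups (3.75 ± 0.729 FPKM in control and 5.25 ± 0.973 FPKM after the siRNA, SD, n = 3, unadjusted p = 0.0545 from limma). Dtx3l was at -0.42 (SE 0.22, unadjusted p = 0.0936 from limma) on the log2 scale.

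**Figure D4:**
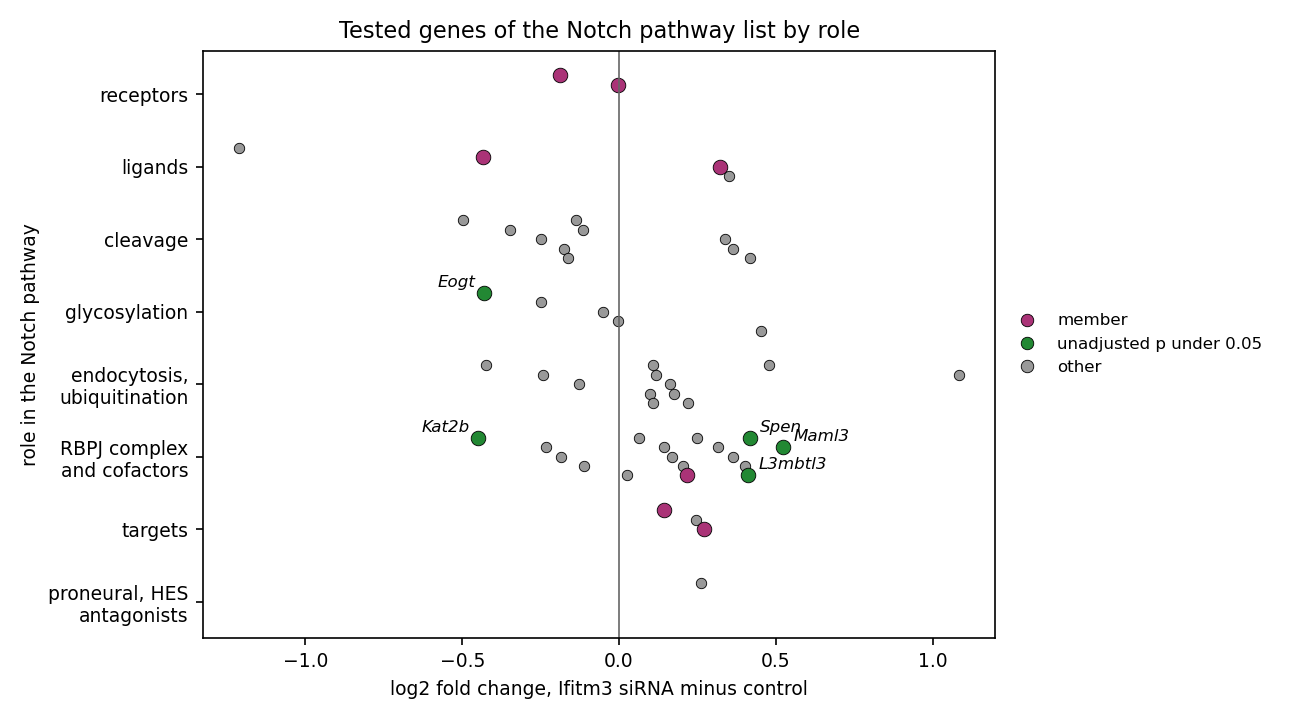
Log2 fold change (Ifitm3 siRNA minus control) of the 54 tested genes of the Notch pathway list, in rows by role (purple, the 7 Notch genes described above; green, other genes past an unadjusted p of 0.05; grey, the rest). The green points are Kat2b, Spen, Maml3 and L3mbtl3 among the cofactors of RBPJ and Eogt among the glycosyltransferases, and vertical offsets within a row carry no value.

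The remaining ligand genes of the list were low or varied widely. Dner, a non-canonical ligand, was at 1.17, 4.35 and 0.51 FPKM in control replicates 1 to 3 and at 0.68, 4.87 and 1.75 FPKM after the siRNA, so that it too was highest in both replicate 2 libraries. The rest of the list did not share this as a whole. Of its 47 tested genes other than the members, 6 had both replicate 2 libraries above the other 4, beside 13.2% of all genes tested. In 7 of the 47 both were below, beside 17.7%. Dlk2 was at 1.02 ± 0.665 FPKM in control and 0.577 ± 0.754 FPKM after the siRNA (SD, n = 3). Of the targets other than the members, Nrarp, a feedback inhibitor of the pathway, was at 0.637 ± 0.232 FPKM in control and 0.787 ± 0.330 FPKM after the siRNA (SD, n = 3), and Hes3, Hes7, Hey2 and Heyl did not reach the filter.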

How the data were processed

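Poly(A) RNA of 6 libraries was sequenced by the authors, who deposited 1 table of FPKM values with 2 decimals. The submitters' processing notes list cutadapt 1.9, HISAT2 2.0.4 and StringTie 1.3.4d, along with hg18, a human build, although 99.5% of the identifiers are mouse genes of GENCODE vM21. The unit was read from these tools and the values. Read numbers are unknown, and low FPKM values showed no steps of whole reads, so no counting error is given. The paper names no test for these data.

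From the deposited FPKM, log2(FPKM + 0.1) was computed. Genes averaging 0.5 FPKM or more were kept (13588), and Ifitm3 siRNA was compared with control in limma 3.58.1 (R 4.3.3, condition only, mean-variance trend, two-sided, Benjamini-Hochberg). A fold change on this scale understates that of low genes. The fit was tested on simulated data with independent noise, which did not hold the shared shift of the replicate 2 libraries. Promoters and motifs were handled in Python 3.11.15.

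The members, gene lists and tests were chosen with earlier results of these data known. Genes named by a rule are the 10 members, other pathway genes at an unadjusted p under 0.05 or among the 2 smallest p of their role, Ifitm3, and 3 genes with the profile most like that of the member with the smallest p. Gm50452, the listed genes under the filter, the genes most like Hes1 and Hey1 and the single cell type markers were named after their values were seen. A symbol with several entries was read from the entry of the highest mean. Alternatives were the replicate block, a pseudocount of 1, no filter, median-ratio scaling, quantile normalization and leaving out single libraries or both replicate 2 libraries. Exons of Notch1, Notch2, Notch3, Dll1 and Hes5 overlap those of other annotated genes, which were at most 0.42 FPKM where listed, and no source used here says whether reads were assigned by strand. Single values of some listed genes are not reported here.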

Additional observations from a re-analysis of the deposited data

How the results depend on the processing

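Over the 7 tested members and 12 alternatives, 0 of 84 values passed an adjusted p of 0.05 (0.377 to 1 in limma), and 11 had the other sign, all with 1 library left out. With single libraries left out, the log2 fold change ranged from -0.092 to 0.13 for Notch1, from -0.43 to 0.065 for Notch2, from -0.75 to -0.13 for Dll1, from 0.074 to 0.63 for Jag1, from -0.015 to 0.39 for Rbpj, from -0.35 to 1.01 for Hes1 and from -0.82 to 1.06 for Hey1. The lowest values of Hes1 and Hey1 came without siRNA replicate 2 and their highest without control replicate 2. Pathway genes at an unadjusted p under 0.05 then numbered 0 to 4 higher and 1 to 4 lower. Over all genes, 0 to 1 were higher and 0 to 2 lower at an adjusted p under 0.05, and 475 to 884 higher and 242 to 594 lower unadjusted.

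Over all genes, 723 were higher and 458 lower unadjusted (61.2% higher). With median-ratio scaling these were 544 and 602 (47.5% higher), with quantile normalization 513 and 604 (45.9% higher), and with no filter 1093 were higher. The count lower at an adjusted p under 0.05 was 0 without both replicate 2 libraries.

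With the replicate number as a block, 1 member was lower at an unadjusted p under 0.05 (Dll1, adjusted p = 0.377 in limma), 5 pathway genes were higher, and 0 of all genes were lower at an adjusted p under 0.05. The deviations of equally numbered libraries correlated at 0.070 (replicate 1), 0.43 (replicate 2) and 0.035 (replicate 3). Only the replicate 2 libraries correlated best with their own number, so that the numbers were not taken to pair the libraries. For Hes1 and Hey1 the standard error fell from 0.76 to 0.23 and from 1.04 to 0.29 without both replicate 2 libraries. With the block it fell to 0.13 for Hes1, to 0.19 for Hey1 and from 0.33 to 0.13 for Jag1. Their adjusted p were then 0.477, 0.772 and 0.425 in limma. For Notch1 the standard error rose from 0.16 to 0.18 with the block.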

Other observations

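Several genes of neuronal or glial commitment on the list of HES-repressed factors were near 0 in these cells. Neurog1, Neurog2, Atoh7, Neurod1, Neurod4 and Olig2 did not reach the filter, and the highest value among them was 0.25 FPKM (Neurod1 in siRNA replicate 3, beside 0.03 to 0.21 FPKM in the control libraries). Hes6, which encodes an antagonist of HES1, was expressed at 7.29, 4.29 and 6.76 FPKM in control replicates 1 to 3 and at 7.32, 6.40 and 7.84 FPKM after the siRNA. Its log2 fold change was 0.26 (SE 0.22, adjusted p = 0.747 from limma), and both replicate 2 libraries were its lowest.

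Among 12174 genes that averaged 1 FPKM or more, the profile over the 6 libraries most like that of Dll1 was that of Xylb, followed by Fzd1 and Pcyt2, with a mean absolute difference of 0.08, 0.09 and 0.10 after centring on the log2 scale. The Wnt receptor gene Fzd1 was at 6.67, 3.10 and 4.44 FPKM in control replicates 1 to 3 and at 4.06, 2.61 and 3.66 FPKM after the siRNA. The same measure for Hes1 and Hey1 was taken after their values were seen. It gave Camk2n1, Repin1 and Bace2 for Hes1 (0.17 to 0.19) and 1700016C15Rik, Klf2 and Sorcs2 for Hey1 (0.20 to 0.21). Klf2, a transcription factor known from endothelial cells, was at 2.49, 39.44 and 4.19 FPKM in control replicates 1 to 3 and at 4.39, 30.15 and 4.25 FPKM after the siRNA, while the 5 endothelial markers Pecam1, Cdh5, Kdr, Tek and Cldn5 summed to at most 0.2 FPKM in any library.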
